A study of Danio rerio with 7 samples.

Results

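The genes described here encode the translation initiation factors (eIF) and elongation factors (eEF) of the zebrafish, Danio rerio. They were chosen by name, as rows of the deposited count table whose symbol starts with eif1 to eif6 or with eef1 or eef2, without the eif2ak and eif4ebp genes and without eef2k, and with at least 30 counts over 6 libraries. Of 72 rows with such a name, among 30421 rows in all, 69 reached 30 counts, 55 initiation and 14 elongation factors, and all 69 also passed the filter on low counts of the test. The remaining 3 rows were eef1a2, with 16 counts, 12 of them in 1 library, and eif4e1b and eif4g1b, with 0 counts in all 6 libraries. The member with the fewest counts was eef2kmt, with 74.

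The libraries were made from pooled heads at 5 days post fertilization (dpf). Of these, 3 came from larvae labelled hm41 mutant (hm41 69, 70 and 71) and 3 from wild type siblings (WT 66, 67 and 68). The series calls the line leaky in connection with the blood-brain barrier, and its design text places the lesion on chromosome 14, in spock1. The labels do not say whether the hm41 larvae were homozygous, how many heads made up a pool, or whether the 3 libraries of a genotype came from separate clutches, so the p-values measure the spread between these libraries only. The seventh sample of the series is a single-cell library of mixed genotype and was not analysed here.

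Protein synthesis begins when a small ribosomal subunit carrying eIF1, eIF1A, eIF3, eIF5 and the initiator tRNA held by eIF2 is brought to the capped end of an mRNA by eIF4E, eIF4G and the helicase eIF4A. The exchange factor eIF2B reloads eIF2 with GTP, and eIF5B joins the large subunit at the start codon. In elongation, eEF1A delivers aminoacyl-tRNA, the eEF1B complex reloads eEF1A with GTP, and eEF2 moves the ribosome along by a codon. The mRNAs of vertebrate elongation factors, like those of ribosomal proteins, are known for a pyrimidine tract at the start through which growth signals control their translation. Zebrafish keep duplicated copies of many of these genes, often written with a final a or b. In some symbols, such as eif5a and eif5b, that letter belongs to the name of the factor.

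Total counts ranged from 33775984 to 114604258 per library. The 8 most abundant rows took 93.6% to 95.7% of them, so that all other genes shared 1664845 to 4959749 counts. Levels are in CPM (counts per 1000000 of the normalized library total), are small for that reason, and are compared for the same gene between libraries, not between genes. The mutated gene spock1, for a secreted proteoglycan, was at 2.20, 1.67 and 1.37 CPM in hm41 and 2.78, 2.01 and 1.95 CPM in WT, with overlap (log2 fold change -0.38 ± 0.231, SE; edgeR adjusted p = 0.594), and so does not tell the genotypes apart. Markers of neurons and photoreceptors, as heads should show, were present in every library. Those of exocrine pancreas, an organ outside the head, were present in every library as well. The summed level of 9 tested neuron markers was 139 to 171 CPM in hm41 and 106 to 121 CPM in WT, that of 12 photoreceptor markers 417 to 441 CPM in hm41 and 205 to 314 CPM in WT, and that of 10 epidermal markers 1054 to 1145 CPM in hm41 and 1527 to 1718 CPM in WT. None of these 3 ranges overlapped between the genotypes at these normalized levels. With library totals alone, the neuron and epidermal ranges overlapped and the photoreceptor ranges did not. The ranges for 12 muscle markers (698 to 843 CPM in hm41, 467 to 934 CPM in WT), 12 exocrine pancreas markers (37.7 to 141 CPM in hm41, 62.3 to 71.7 CPM in WT) and 13 markers of proliferating cells (38.3 to 49.0 CPM in hm41, 38.4 to 53.6 CPM in WT) did overlap. In pooled heads, fewer cells of a type and less RNA per cell cannot be told apart, and the part of these markers in the results that follow was not tested.

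No translation factor gene differed between hm41 and WT past the threshold of an adjusted p of 0.05 (edgeR's quasi-likelihood test, Benjamini-Hochberg adjustment over 19275 genes). The smallest adjusted p was 0.165. Over all genes tested 0.0571% passed, 0.0156% higher and 0.0415% lower. At an unadjusted p under 0.05 there were 10 members, 4 higher and 6 lower in hm41, which is 14.5% of the members against 10.4% of all genes tested (5.35% higher and 5.05% lower). DESeq2 gave an adjusted p to 24 of the 69 members and called 1 of them, eif5a2, as higher. It gave an adjusted p to 2085 of the 19275 genes and called 6.71% of those, 4.7% as higher. The fold changes were small: on the log2 scale of hm41 over WT they ran from -0.70 to 0.76. In 11 members, 5 higher and 6 lower, the 3 hm41 and the 3 WT libraries did not overlap, a share of 15.9% against 16.5% of all genes tested (8.09% higher and 8.44% lower). Both shares, taken over all members, are near those of all genes. Overlap of single genes is stated here and below for the normalized levels, and some gaps close with library totals alone. By class, 4 of 14 elongation factors (28.6%) and 6 of 55 initiation factors (10.9%) were at an unadjusted p under 0.05. Without overlap were 4 elongation factors (28.6%) and 7 initiation factors (12.7%). The elongation class is small, and the difference between the classes was not tested.

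The middle of the group lay slightly below that of other genes. Of the 69 members, 49 (71.0%) had a log2 fold change below 0, against 52.1% of all genes tested, with a median of -0.16 for the members and -0.02 for all genes. The median was -0.22 for the 14 elongation factors and -0.16 for the 55 initiation factors. The values moved with the scaling: with library totals alone the median of all genes was 0.20, that of elongation factors -0.025 and that of initiation factors 0.045, a turn of sign for initiation, while relative to all genes they were -0.23 and -0.16. Without WT 68 both medians stayed below 0 and were smaller in size, at -0.11 for elongation factors and -0.052 for initiation factors, with 43 of the 69 members below 0 and the median of all genes at -0.01. With library totals alone the split at an unadjusted p under 0.05 was 4 higher and 0 lower, against 9.25% higher and 0.861% lower of all genes tested. For the medians given first, the order turned with eIF5A counted as elongation and rows that only share the name left out. They were then -0.12 for elongation and -0.16 for initiation factors.

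**Figure D1:**
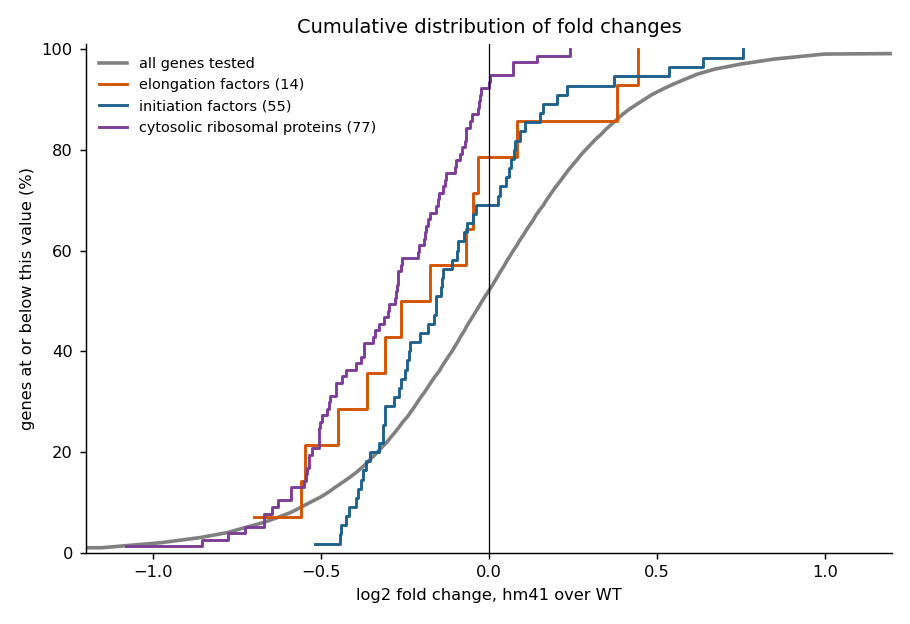
Cumulative distribution of log2 fold changes (hm41 over WT, x axis) as the percent of genes at or below each value (y axis), for 14 elongation factors, 55 initiation factors, 77 cytosolic ribosomal protein genes and all 19275 genes tested (grey). The curves of the factors lie to the left of the grey curve around 0, with medians of -0.22 and -0.16 against -0.02, and the ribosomal protein curve lies farther left, with a median of -0.28.

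A measure that no scaling between libraries touches is the share of elongation factor counts among all factor counts of a library. It was 62.8%, 61.1% and 62.1% in hm41 69, 70 and 71, and 66.9%, 64.5% and 66.5% in WT 66, 67 and 68. Every hm41 library lay below every WT library, with means of 62.0 ± 0.858% in hm41 and 66.0 ± 1.25% in WT (SD, n = 3 each), a difference of -3.95 percentage points. With eIF5A counted as elongation and rows that only share the name left out, the difference was -2.28 percentage points, still without overlap. This choice was made after seeing the data, and gave median log2 fold changes of -0.12 for elongation and -0.16 for initiation factors. The most abundant rows of the group set this share, since eef1a1l1 and eef2b together held 85.6% to 89.2% of the elongation factor counts in hm41 and 88.6% to 90.3% in WT. Without those 2 genes the share of elongation factors was 15.5%, 18.5% and 17.3% in hm41 and 16.4%, 17.1% and 17.5% in WT, with overlap and means of 17.1% and 17.0%. A split of 3 against 3 libraries cannot give an exact permutation p below 0.1, and no p is given for these shares.

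Summed over the class, elongation factors had levels of 599.9, 526 and 589.9 CPM in hm41 69, 70 and 71, and 702, 619.6 and 811 CPM in WT 66, 67 and 68. The lowest WT library, WT 67, was above the highest hm41 library by a small margin. These sums, like those of initiation factors below, depended on the scaling. With library totals alone, WT 66 and WT 67 lay below every hm41 library in both classes, and WT 68 above. Initiation factors summed to 355, 334 and 361 CPM in hm41 and to 348, 341 and 409 CPM in WT, where WT 68 was the highest and the other WT libraries fell within the hm41 range. All members together took 1.74%, 1.55% and 1.66% of the counts outside the 8 most abundant rows in hm41, and 1.93%, 1.75% and 2.17% in WT.

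**Figure D2:**
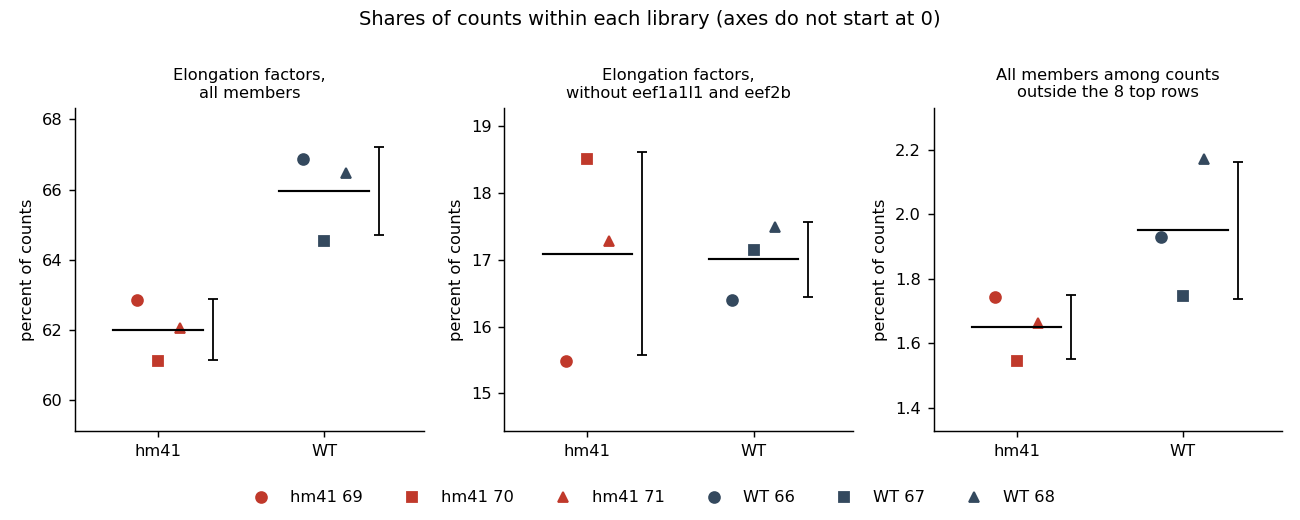
Percent of counts (y axis, not starting at 0) in each hm41 library (red, left) and WT library (dark, right), with the mean (line) and SD (bar) of 3 libraries. Elongation factors made up 61.1% to 62.8% of factor counts in hm41 and 64.5% to 66.9% in WT (left panel), a gap that is not seen without eef1a1l1 and eef2b (middle panel). The right panel gives all members among the counts outside the 8 most abundant rows.

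Among the eEF1A genes, which encode the carrier of aminoacyl-tRNA, counts came almost entirely from eef1a1l1 (96.5% to 97.9% in hm41 and 97.2% to 97.9% in WT). Its level was 289, 244 and 305 CPM in hm41 and 319.9, 284 and 401 CPM in WT, with overlap. On the log2 scale hm41 over WT was -0.26, with a 95% confidence interval of -0.68 to 0.15. It was -0.12 without WT 68 and -0.075 with library totals alone. For the minor copies eef1a1a, eef1a1b and eef1a1l2 it was -0.05, 0.08 and -0.36, with libraries of both genotypes overlapping in each. The deposited counts of eef1a1l1 and eef1a1l2 were not all whole numbers, as when reads are divided between similar rows, so the split between them is uncertain.

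All 4 genes of the eEF1B exchange complex had lower values in hm41. Its catalytic subunit gene eef1b2 stood out, with 7.15, 7.81 and 8.84 CPM in hm41 and 11.3, 9.54 and 14.2 CPM in WT. Every hm41 library was below every WT library, with a log2 fold change of -0.56 ± 0.173 (SE; edgeR adjusted p = 0.23). The value was -0.40 without WT 68 and -0.37 with library totals alone. By that scaling the libraries overlapped, with WT 67 below every hm41 library. That last scaling raised values in general, with the median of all genes at 0.20 in place of -0.02. For eef1da and eef1db, which encode copies of a further exchange subunit, the values were -0.31 ± 0.168 and -0.18 ± 0.196, and for the structural subunit gene eef1g -0.07 ± 0.173. None of the 4 passed the test. With library totals alone, 7 of the 14 elongation factors were below 0, in place of 11, and 10 lay below the median of all genes.

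The genes of the translocase eEF2 pointed in different directions. The main gene eef2b had 246, 206 and 209 CPM in hm41 and 314, 265 and 323 CPM in WT. All hm41 libraries were lower, at 0.733-fold of WT (log2 fold change -0.45 ± 0.183, SE; edgeR adjusted p = 0.397; -0.23 with library totals alone). Its relative eef2l2 had 18.1, 21.7 and 16.9 CPM in hm41 and 12.2, 13.1 and 16.4 CPM in WT. Here all hm41 libraries were higher, at 1.36-fold (0.44 ± 0.170; edgeR adjusted p = 0.357; 0.65 with library totals alone). With library totals alone the libraries of the genotypes overlapped in both eef2b and eef2l2. The eef2l2 value ran from 0.33 to 0.57 when 1 library was left out. A neighbouring pair of copies, eef2a.1 and eef2a.2, had few counts (442 and 156 over all libraries) that were not all whole, with log2 fold changes of -0.55 ± 0.255 and -0.03 ± 0.404. For eef2a.1 the levels were 0.767, 0.963 and 1.05 CPM in hm41 and 1.45, 1.09 and 1.48 CPM in WT, without overlap (edgeR adjusted p = 0.469; log2 fold change -0.34 with library totals alone).

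The other 2 rows with an eEF name do other work. The gene eef1e1 encodes a subunit of the aminoacyl-tRNA synthetase complex and was at 0.38 ± 0.356 (log2 fold change and SE). The gene eef2kmt encodes a methyltransferase that acts on eEF2 and had the lowest value of all members, -0.70 ± 0.591, on 74 counts. Neither passed the test.

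**Figure D3:**
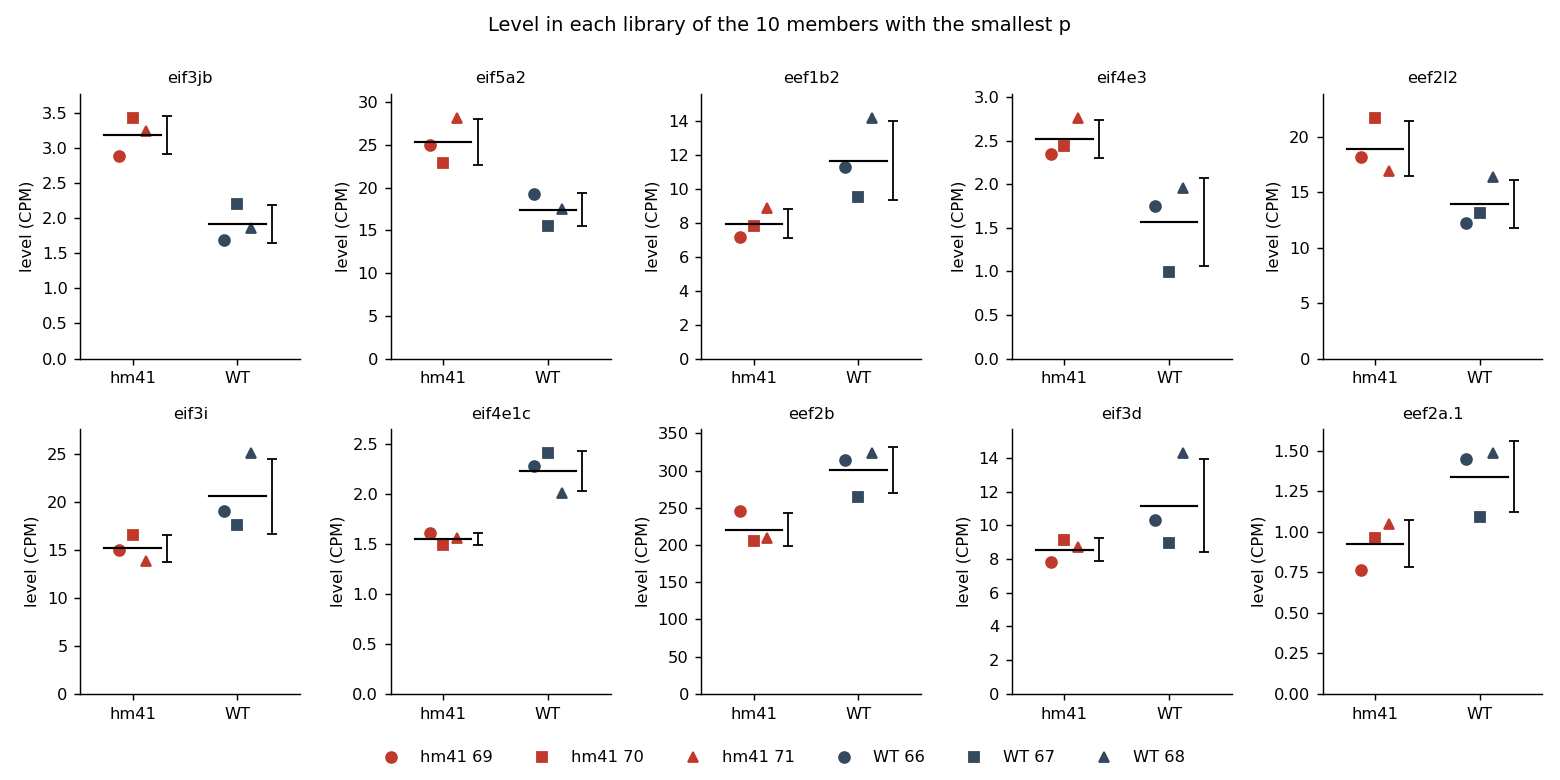
Level in CPM (y axis) of the 10 members with the smallest p, in each hm41 library (red, left) and WT library (dark, right), with the mean (line) and SD (bar) of 3 libraries. In eif3jb, eif5a2, eif4e3 and eef2l2 the hm41 libraries lie above all WT libraries, and in eef1b2, eif3i, eif4e1c, eef2b and eef2a.1 below them, while eif3d overlaps.

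In the factors that assemble the first complex, no gene passed the test, and the libraries of the genotypes overlapped in every gene of eIF1, eIF1A, eIF2 and eIF2B. For eIF1 and eIF1A, which set start codon choice, eif1b had a log2 fold change of -0.14, eif1axa of -0.31 and eif1axb of 0.07, with an adjusted p of at least 0.816. The related eif1ad had -0.35. Of the eIF2 subunit genes, the gamma subunit gene eif2s3 had the lowest value, -0.37 ± 0.176 (SE; edgeR adjusted p = 0.481), with levels of 8.79, 6.27 and 6.62 CPM in hm41 and 7.79, 9.50 and 10.6 CPM in WT. Library hm41 69 was above WT 66 there. The alpha subunit copies eif2s1a and eif2s1b had 0.03 and 0.20, and the beta subunit gene eif2s2 had -0.16. Of the 5 subunit genes of eIF2B, 4 (80%) were below 0, against 52.1% of all genes tested. They ran from -0.42 ± 0.237 for eif2b4 to -0.31 ± 0.271 for eif2b1, and eif2b2 was at 0.23 ± 0.426. The genes eif2a and eif2d, whose products can bring tRNA to the ribosome without eIF2, had -0.09 and -0.16.

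The scaffold eIF3 has the most subunits of any initiation factor. Of its 16 genes, 14 (87.5%) had values below 0, against 52.1% of all genes tested. Their median was -0.22, and 0 passed the test in either direction. With library totals alone, 24 of the 55 initiation factors were below 0, in place of 38, and 38 lay below the median of all genes. The gene eif3i, for a subunit built of WD repeats, had 15.0, 16.6 and 13.9 CPM in hm41 and 19.1, 17.6 and 25.1 CPM in WT. Its libraries did not overlap (log2 fold change -0.44 ± 0.171, SE; edgeR adjusted p = 0.37), and the value was -0.28 without WT 68 and -0.24 with library totals alone. The gene eif3d, for a subunit that can bind the mRNA cap in human cells, had 7.82, 9.15 and 8.69 CPM in hm41 and 10.3, 8.94 and 14.3 CPM in WT. These overlapped, with hm41 70 above WT 67 (-0.39 ± 0.178; edgeR adjusted p = 0.463; -0.18 without WT 68 and -0.21 with library totals alone). Other core subunit genes were nearer to 0, such as eif3c (-0.26), eif3f (-0.24), eif3ba (-0.14) and eif3ea (-0.08). The gene of the largest subunit, listed as eif3s10, was at 0.15 ± 0.162.

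Against these, eif3jb had the smallest p of all members. It encodes a copy of the loosely bound eIF3j, which in yeast and mammals sits near the mRNA channel of the small subunit. Its levels were 2.89, 3.43 and 3.25 CPM in hm41 and 1.69, 2.21 and 1.86 CPM in WT. All hm41 libraries were higher than all WT libraries, at 1.69-fold (log2 fold change 0.76, 95% confidence interval 0.35 to 1.16; unadjusted p = 0.00096 and adjusted p = 0.165 by edgeR's test). It was not called in any alternative analysis in which it had an adjusted p (0.122 to 0.468). Its value ran from 0.67 to 0.85 when 1 library was left out, and was 0.97 with library totals alone. Its partner copy eif3ja was at 1.76, 1.59 and 1.25 CPM in hm41 and 1.39, 1.68 and 1.86 CPM in WT (-0.09 ± 0.231), with overlap.

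The cap-binding side showed values of both signs. Of the 7 rows named for eIF4E, which include its carrier eif4enif1, 6 (85.7%) were below 0, against 52.1% of all genes tested. The gene eif4e1c, a cap-binding eIF4E copy found in fish, had 1.61, 1.49 and 1.56 CPM in hm41 and 2.28, 2.41 and 2.01 CPM in WT, without overlap (log2 fold change -0.52 ± 0.208, SE; edgeR adjusted p = 0.389; -0.28 with library totals alone). The member above 0 was eif4e3, a divergent cap-binding relative, with 2.35, 2.44 and 2.76 CPM in hm41 and 1.75, 0.990 and 1.95 CPM in WT. Its libraries did not overlap either (0.64 ± 0.232; edgeR adjusted p = 0.33; 0.84 with library totals alone). The eif4e3 value ran from 0.44 (without WT 67) to 0.81 when 1 library was left out. The values of eif4ea and eif4eb were -0.04 and -0.44, those of eif4e2 and its relative eif4e2rs1 -0.40 and -0.28, and that of eif4enif1, whose product carries eIF4E into the nucleus, -0.05.

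Helicase and scaffold genes differed little. The helicase genes eif4a1a and eif4a1b had log2 fold changes of -0.14 ± 0.162 and -0.16 ± 0.164 (SE), and eif4a3, whose product belongs to the exon junction complex, had -0.31 ± 0.203. The copy eif4a2, abundant in mammalian brain, had 2.35, 2.28 and 2.05 CPM in hm41 and 1.56, 1.48 and 2.07 CPM in WT (0.37 ± 0.213; edgeR adjusted p = 0.573), where WT 68 was above hm41 71. The scaffold gene eif4g1a had -0.23 ± 0.162, while eif4g2a, eif4g2b, eif4g3a and eif4g3b lay between 0.03 and 0.16. Of these, eif4g2b, whose product lacks the eIF4E-binding part, was at 26.2, 25.1 and 26.7 CPM in hm41 and 21.4, 23.4 and 25.02 CPM in WT, apart by a narrow gap (0.16 ± 0.156). The deposited counts of eif4g2a and eif4g2b were not all whole numbers, so the split between them is uncertain. The helicase cofactor gene eif4bb had -0.42 ± 0.202 (edgeR adjusted p = 0.489), with 4.27, 2.59 and 4.08 CPM in hm41 and 4.29, 4.36 and 5.75 CPM in WT, while its copy eif4ba and eif4h were at 0.09 and 0.06.

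Of the late factors, eif5, eif5b and eif6 had log2 fold changes of -0.11, 0.08 and -0.33. The eIF5A genes were the single role group of more than 1 gene with no member below 0. Named for initiation, eIF5A carries the modified amino acid hypusine and is known to help ribosomes through difficult stretches in elongation. The main gene eif5a had 30.3, 30.4 and 28.3 CPM in hm41 and 28.2, 27.3 and 30.5 CPM in WT (0.05 ± 0.155, SE). Its relative eif5a2, which in mammals is found mostly in brain and testis, had 24.96, 22.8 and 28.1 CPM in hm41 and 19.3, 15.5 and 17.5 CPM in WT. All hm41 libraries were higher, at 1.45-fold (0.54 ± 0.163; adjusted p = 0.228 by edgeR's test and 0.0199 by DESeq2; 0.76 with library totals alone). The eif5a2 value ran from 0.46 to 0.62 when 1 library was left out. This gene was the 1 member that DESeq2 called, with an adjustment over 2085 genes where edgeR's was over 19275. By DESeq2 the unadjusted p was 0.00074 for eif5a2 and 0.00078 for eif3jb, which was given no adjusted p.

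**Figure D4:**
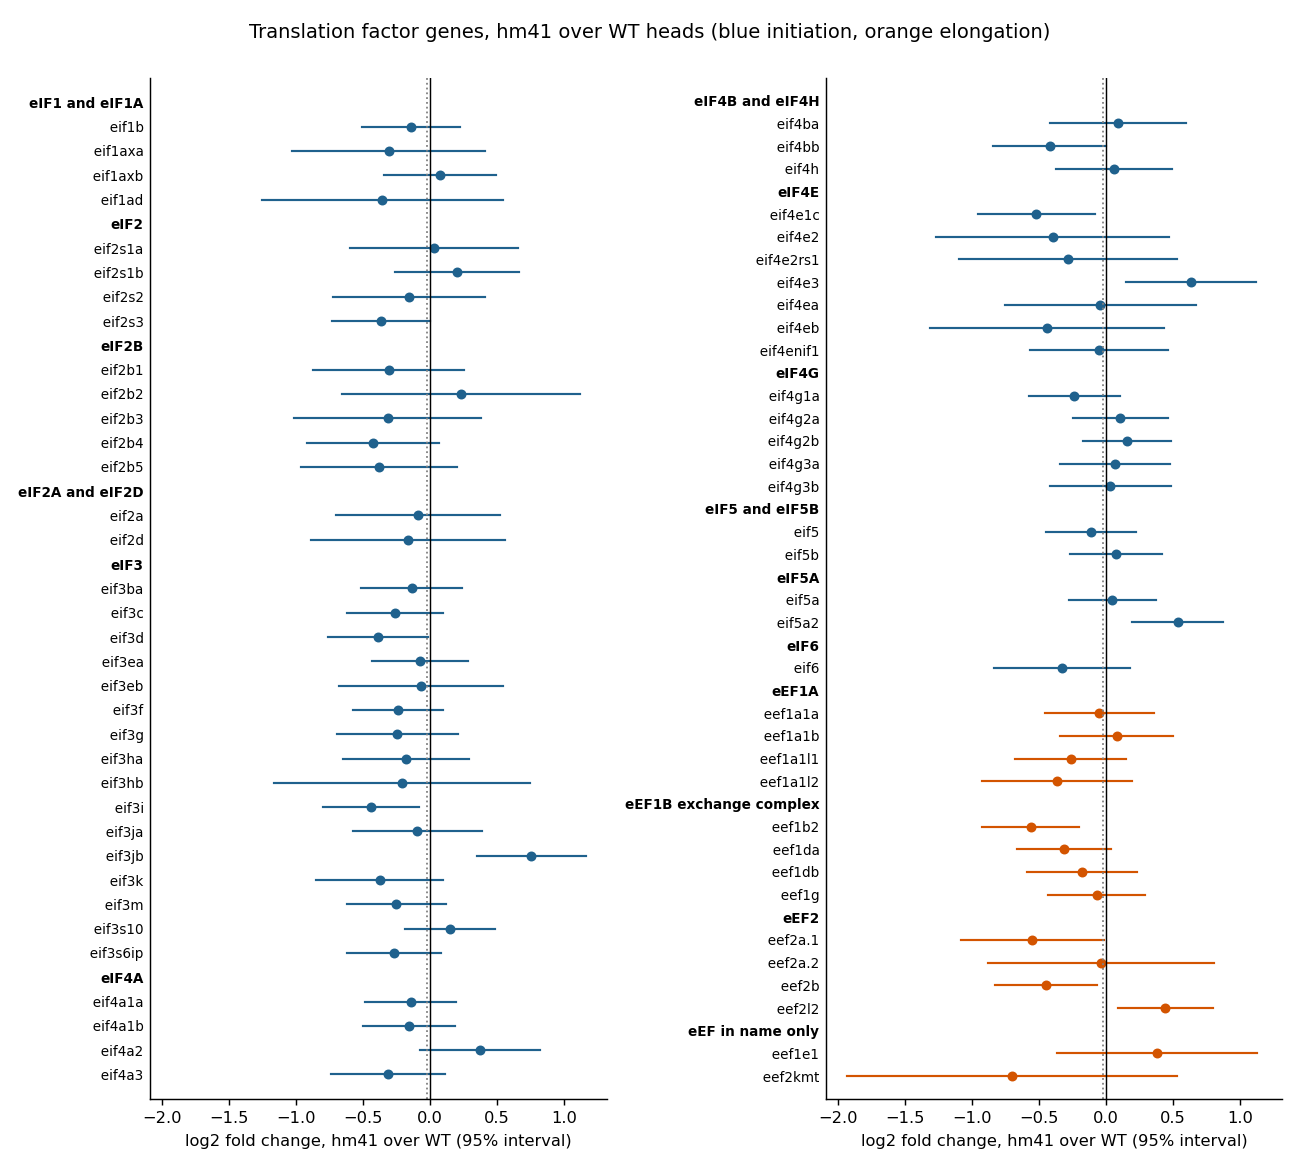
Log2 fold change of hm41 over WT (x axis) with its 95% confidence interval for the 69 members, grouped by role, initiation factors in blue and elongation factors in orange. The solid line marks 0 and the dotted line the median of all genes tested, -0.02. Intervals wholly above 0 belong to eif3jb, eif4e3, eif5a2 and eef2l2, and intervals wholly below 0 to eef1b2, eef2b, eef2a.1, eif3i, eif3d and eif4e1c.

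Ratios of related copies within a library are free of scaling between libraries. Paired by name after the values were seen, 21 pairs were compared, each with the copy of more counts in the denominator except that eif4e3 was set against eif4e1c, and no test was made. The libraries of the genotypes did not overlap in 5 of the 21 pairs, each with a different denominator. Among all 21 pairs, several share a denominator. Of single genes tested 16.5% did not overlap, which is no like measure for ratios of genes picked after their values were seen. For eef2l2 against eef2b and eif4e3 against eif4e1c, each gene alone was already without overlap, in opposite directions. These ratios therefore had to be without overlap and restate the levels given above. The genes eif5a2 and eif3jb were also without overlap alone, and their partners eif5a and eif3ja had log2 fold changes of 0.05 and -0.09. The ratios of these pairs largely repeat the levels of eif5a2 and eif3jb. For every 100 counts of eef2b there were 7.37, 10.5 and 8.08 counts of eef2l2 in hm41 and 3.90, 4.96 and 5.07 in WT. For every 100 counts of eif5a there were 82.4, 75.2 and 99.3 counts of eif5a2 in hm41 and 68.4, 56.7 and 57.4 in WT. In both pairs the less abundant copy had the larger share in hm41.

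Similar gaps were seen for the other 3 pairs. Per 100 counts of eif4e1c, eif4e3 had 146, 164 and 177 counts in hm41 and 76.9, 41.1 and 97.1 in WT, the largest log2 difference of the 21 (1.26). Per 100 counts of eif4a1b, eif4a2 had 6.001, 6.61 and 5.60 counts in hm41 and 4.39, 3.55 and 4.52 in WT. Per 100 counts of eif3jb, eif3ja had 61.1, 46.4 and 38.3 counts in hm41 and 82.5, 76.1 and 100 in WT. The remaining 16 pairs overlapped, among them eif4g2a against eif4g2b, eif4a1a against eif4a1b and eef1a1a against eef1a1l1. The neuron and photoreceptor markers, whose ranges are given above, were higher in the same hm41 libraries, and their part in these ratios was not tested.

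**Figure D5:**
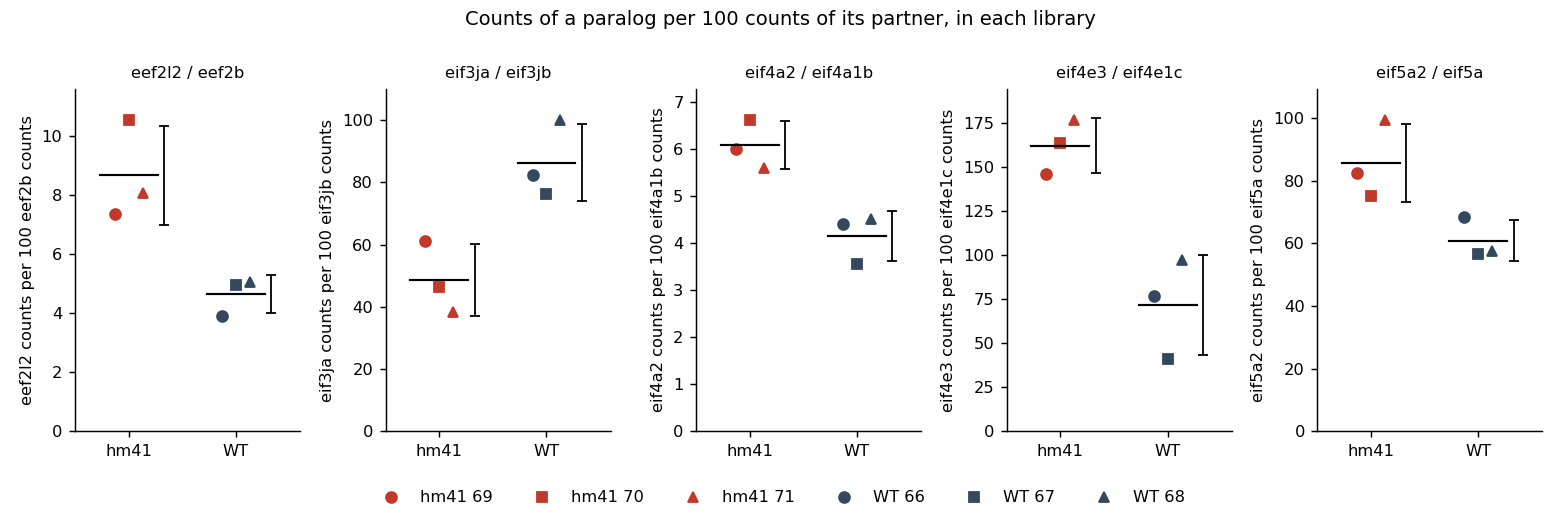
Counts of 1 gene per 100 counts of its related copy (y axis) in each hm41 library (red, left) and WT library (dark, right), with the mean (line) and SD (bar) of 3 libraries, for the 5 of 21 pairs whose libraries did not overlap. The ratio is higher in every hm41 library for eef2l2, eif4a2, eif4e3 and eif5a2, and lower for eif3ja over eif3jb.

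Genes that act beside the factors were looked at by list. Of 24 tested regulators of translation, among them the eIF2 kinases, the eIF4E-binding proteins and eef2k, 0 passed the test and the median was -0.03. At an unadjusted p under 0.05 there were 4, all higher, where 5.35% of all genes tested were higher at that p. They were rps6kb1a, a kinase of ribosomal protein S6 (0.55 ± 0.188, SE), pdcd4a, an inhibitor of eIF4A (0.48 ± 0.170), ppp1r15a, which directs the dephosphorylation of eIF2 (0.41 ± 0.164), and eif4ebp3l, an eIF4E-binding protein (0.59 ± 0.246). The first 3 follow the rule of the 3 smallest p per list, and eif4ebp3l was named after its values were seen. The kinase genes eif2ak1, eif2ak2 and eif2ak3, also named afterwards, had -0.19, -0.29 and 0.17, and eef2k, whose product inhibits eEF2, had 0.13 ± 0.180.

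Of 20 targets of the integrated stress response, which phosphorylated eIF2 sets off, 0 passed the test, the median was 0.04, and 2 were higher and 0 lower at an unadjusted p under 0.05, against 10.4% of all genes in either direction. These were ddit4 (0.77 ± 0.3001, SE; highest in hm41 71, with 6.08 CPM) and vldlr (0.36 ± 0.152), while the asparagine synthetase gene asns had -0.38 ± 0.186. Among 13 genes listed under termination, recycling and poly(A) binding the median was -0.08, and 1, the poly(A)-binding protein gene pabpc1a (-0.36 ± 0.159), was lower at that p. This list also holds dhps and dohh, whose products make hypusine. The aminoacyl-tRNA synthetase list of 20 genes, which also holds the complex subunits aimp1 and aimp2, had a median of -0.06, with vars (-0.46 ± 0.185) lower. The 10 mitochondrial factor genes had a median of 0.20 with 0 at that p. None of the genes in these lists passed the adjusted threshold. With library totals alone, where the median of all genes was 0.20, the median was 0.18 for the regulators and 0.23 for stress response targets. It was 0.11 for the list of termination, recycling and poly(A) binding, 0.15 for the synthetase list and 0.44 for the mitochondrial factors.

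The cytosolic ribosomal protein genes lay lower than the factors. Of 77 tested, 72 had values below 0, 29 were lower and 0 higher at an unadjusted p under 0.05, and 0 passed the adjusted threshold. Of all genes tested, 52.1% were below 0 and 5.05% lower at that p. Their median was -0.28, and with library totals alone it was -0.10, with 46 of 77 below 0 and 3 lower at that p (0.861% of all genes). Their summed level was 1381, 1597 and 1735 CPM in hm41 and 1879, 1797 and 2113 CPM in WT, without overlap. That gap also depended on the scaling. With library totals alone, WT 66 and WT 67 lay below every hm41 library and WT 68 above.

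In the RefSeq annotation of GRCz12tu, used only for names and neighbours, all 69 members were found. On chromosome 14, which carries spock1, lay 3 of them, none called. Between spock1 and eif1ad were 77 genes of the table, between spock1 and eef1g 324, and between spock1 and eif4ea 549. Their log2 fold changes were -0.35 ± 0.430, -0.07 ± 0.173 and -0.04 ± 0.341 (SE).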

How the data were processed

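The authors deposited expected counts per gene, which are not normalized. The build GRCz11 and the tools RSEM, TopHat and Bowtie2 appear in a list without versions, per the submitters' processing notes. Directional libraries were made from total RNA, per the labels' protocols. Which annotation was counted, and whether by strand, is not given in the sources used here, so antisense reads may add to a gene. Counts were rounded, filtered with filterByExpr, normalized by TMM and tested with edgeR 4.0.16 in R 4.3.3 (quasi-likelihood, robust, two-sided, no covariate), over the whole table. DESeq2 1.42.0 was an alternative. The steps were tested on simulated data. The labels give no pairing of hm41 with WT libraries, so the comparison was unpaired.

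The members and lists were chosen with earlier results of these data known. Full values are given for the 10 members with the smallest p, members at a log2 fold change of at least 1 in size (none) and related copies that differ by that much. The part of that rule on levels per coding length could not be applied, since no coding lengths were at hand. Other members with values per library were named after these were seen. Older symbols were matched through RefSeq synonyms.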

Additional observations from a re-analysis of the deposited data

How the results depend on the processing

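No member was called under library totals alone, without the 8 most abundant rows, with no filterByExpr, with a term for the row LOC110438492 (abundant in hm41 70, hm41 71 and WT 68 and at 6 counts or fewer in the others), or without any 1 library, all by edgeR's test. DESeq2, whose adjustment covered 2085 genes, called 1 member (eif5a2, adjusted p = 0.0199) and gave 45 members no adjusted p. The number of members at an unadjusted p under 0.05 was 10, with 4 under library totals alone and 13 (4 higher, 9 lower) with the LOC110438492 term. Without 1 library it ran from 6 (without hm41 70) to 12 (without WT 67). With library totals alone the median log2 fold change was 0.045 for initiation factors, a turn of sign, and -0.025 for elongation factors, with that of all genes at 0.20. Without 1 library the initiation median ran from -0.19 to -0.052 (without WT 68) and the elongation median from -0.33 to -0.11 (without WT 68). The value of eif3ja turned to 0.12 with library totals alone, and ran from -0.21 (without WT 66) to 0.041 (without hm41 71) without 1 library, with 0.013 without WT 68. The difference in the elongation share ran from -4.66 to -3.49 percentage points without 1 library. It was -2.28 with eIF5A counted as elongation and rows that only share the name left out, an alternative chosen after seeing the data. The medians were then -0.12 for elongation and -0.16 for initiation factors. The cause of these shifts was not tested. No paired analysis was made because the labels do not say whether hm41 and WT libraries belong together in pairs. Members with few counts, such as eef2kmt, have wide intervals.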
